A study of Mus musculus with 54 samples.

Results

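The comparison described here is that of mouse cells labelled Ovol1KO with wild-type (WT) cells, made at each of 3 stages of germ cell induction in culture and again over the 3 stages together. Its members are the 12 libraries whose sample titles name the WT or Ovol1KO line, of 54 libraries in the series, with 2 libraries in each of 6 groups. Both lines were sampled as embryonic stem cells (ESC), as epiblast-like cells (EpiLC) and as primordial germ cell-like cells (PGCLC) at day 2. The labels give the strain of all 12 as C57BL/6 X 129/SvJ and the genotype as wild type or Ovol1 mutant. No transgene or agent is named for either line. The sources used here do not say which bases the Ovol1 mutation removes, whether the mutant line is 1 clone, or whether the 2 libraries of a group came from separate cultures. The p-values therefore measure the spread between libraries, which may be technical.

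ESC resemble the naive epiblast before implantation, EpiLC resemble the epiblast shortly after it, and PGCLC resemble the founders of the germ line, which the epiblast gives rise to under BMP signalling. Ovol1 encodes a C2H2 zinc finger transcription factor that mostly acts as a repressor. In mouse it is known for its part in the epidermis, where it favours exit from proliferation, and in male meiosis, where spermatocytes without it arrest. Its paralogue Ovol2 is known as a keeper of epithelial state that represses genes of the epithelial to mesenchymal transition. The comparison asks how the transcriptome of a line mutant for Ovol1 differs from WT at each step towards the germ line.

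Expression was measured by sequencing poly(A) RNA and is given as TPM, transcripts per M transcripts, a level corrected for gene length and scaled to the same total in every library. Read totals recovered from the TPM values ran from 2.16 to 17.49 M reads over the 12 libraries. In ESC they were 6.13 and 3.02 M in WT and 5.31 and 2.16 M in Ovol1KO. In EpiLC they were 3.62 and 17.49 M in WT and 6.97 and 3.44 M in Ovol1KO. In PGCLC they were 5.22 and 6.94 M in WT and 2.37 and 5.6 M in Ovol1KO. Stage markers matched the labels in both lines. The summed level of 6 ESC markers was 1230 to 1330 TPM in WT ESC and 1070 to 1180 TPM in Ovol1KO ESC, that of 5 EpiLC markers was 2390 to 2400 TPM in WT EpiLC and 2190 to 2430 TPM in Ovol1KO EpiLC, and that of 6 PGCLC markers was 1270 to 1390 TPM in WT PGCLC and 1030 to 1310 TPM in Ovol1KO PGCLC. T, which also marks the primitive streak, made up most of the PGCLC sum in both lines. That sum therefore does not by itself show germ cell identity.

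The targeted gene was scarce in every library and did not separate the lines. Ovol1 (chromosome 19, 5549137 to 5560575 on GRCm38) was covered by 3 and 2 reads in WT ESC and by 2 and 0 in Ovol1KO ESC. It had 4 and 14 reads in WT EpiLC against 5 and 2 in Ovol1KO EpiLC, and 7 and 3 reads in WT PGCLC against 3 and 10 in Ovol1KO PGCLC. Its level was 0.325 to 1.02 TPM over the WT libraries and 0 to 1.35 TPM over the Ovol1KO libraries, so the lines overlapped. Its pooled log2 fold change, taken on log2(TPM + 1) as are all below, was -0.04 ± 0.16 (SE), and limma, a linear model fitted across all genes with p adjusted by the Benjamini-Hochberg (BH) method, gave an adjusted p of 0.945. A gene-level TPM cannot show the loss of part of a gene, and at this depth it does not check the genotype label. The paralogues also did not pass the test: Ovol2 stood at 4.98 to 12.7 TPM in WT and 6.65 to 16.5 TPM in Ovol1KO (pooled log2 fold change 0.24 ± 0.20, limma adjusted p = 0.679), and Ovol3 had a pooled log2 fold change of -0.14 ± 0.14 (limma adjusted p = 0.757). Cdh1, which encodes E-cadherin and is a readout of epithelial state, stood at 468 and 411 TPM in WT ESC against 493 and 433 TPM in Ovol1KO ESC. Its pooled log2 fold change was 0.09 ± 0.04 (limma adjusted p = 0.454).

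Few genes differed at any stage, and the 6 called at all 3 stages lay on the sex chromosomes. A gene is called here when its BH adjusted p over 14416 tested genes was under 0.05 and its log2 fold change was at least 1 in size, and it is said to have risen or fallen when it passed the adjusted p alone. In ESC 78 genes were called, 0.541% of those tested, 42 higher in Ovol1KO (0.291%) and 36 lower (0.25%). In EpiLC 70 were called (0.486%), 45 higher (0.312%) and 25 lower (0.173%). In PGCLC 96 were called (0.666%), 71 higher (0.493%) and 25 lower (0.173%). With stage as a factor, 6 libraries against 6, 23 genes were called (0.16%), 7 higher (0.0486%) and 16 lower (0.111%). By adjusted p alone, 290 genes rose or fell in ESC (2.01%), 467 in EpiLC (3.24%), 384 in PGCLC (2.66%) and 271 in the pooled fit (1.88%). Scaling all libraries to the same distribution of values turned the balance in the first 2 stages, to 27 higher and 45 lower in ESC and 22 higher and 30 lower in EpiLC, and gave 63 higher and 34 lower in PGCLC. Of 209 genes called at any stage, 6 were called at all 3 stages, each in 1 direction: Klhl13 and Rhox9 higher, and Xlr3a, Eif2s3y, Uty and Ddx3y lower. In PGCLC the call of Rhox9 was lost under 8 of 12 alternatives and that of Xlr3a under 5 of 12, limma-voom and fits without 1 library among them. ESC and EpiLC shared 4 higher and 17 lower genes, which is 26.9% of the ESC calls and 30% of the EpiLC calls. EpiLC and PGCLC shared 5 higher and 5 lower genes (14.3% and 10.4% of their calls), as did ESC and PGCLC (12.8% and 10.4%). No gene was called in opposite directions at 2 stages. These counts depended on single libraries: ESC gave 45 genes without the second WT library, 49 without the second Ovol1KO library and 133 without the first, and EpiLC gave 38 without the first WT library and 161 without the second. PGCLC gave 18 and 35 without the first and second WT library and 13 and 489 without the first and second Ovol1KO library.

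Transcripts of the Y chromosome were lower at every stage, and Eif2s3y and Uty had the 2 lowest pooled log2 fold changes of the called genes. Eif2s3y (chromosome Y, 1010562 to 1049134) encodes the Y copy of the gamma subunit of translation initiation factor eIF2. It stood at 27.8 and 22.7 TPM in WT ESC against 0.714 and 0 TPM in Ovol1KO ESC. The levels were 39.2 and 37.9 against 3.42 and 5.94 TPM in EpiLC, and at 26.4 and 27.5 against 1.56 and 0.886 TPM in PGCLC. The groups were apart at every stage, a condition for naming the largest pooled changes, yet 5 of the 6 Ovol1KO libraries still held reads of it. The pooled log2 fold change was -3.61 ± 0.22 (limma adjusted p = 2.05e-07). Uty, the Y copy of a histone demethylase gene, was at 8.9 to 12.9 TPM in the 6 WT libraries and at 0.371 to 1.93 TPM in the 6 Ovol1KO libraries (pooled log2 fold change -2.53 ± 0.16, limma adjusted p = 2.05e-07). Ddx3y, which encodes an RNA helicase, was at 20.4 to 26.9 TPM in WT and 3.13 to 7.47 TPM in Ovol1KO (pooled log2 fold change -2.07 ± 0.13, limma adjusted p = 2.05e-07). Of the 7 Y-linked genes tested, 6 fell in ESC, 7 in EpiLC, 4 in PGCLC and 6 in the pooled fit, where 0.527%, 0.534%, 0.756% and 0.201% of all genes fell. Zfy1, which encodes a zinc finger protein, was listed at 0 in both Ovol1KO ESC libraries against 2.34 and 2.99 TPM in WT, and was at least 3.56-fold lower if each library could have held 3 reads. Kdm5d, a histone demethylase gene, was at 0 in both Ovol1KO EpiLC libraries against 1.39 and 0.988 TPM in WT, at least 4.7-fold lower by the same floor. Summed over the 7 genes, the Ovol1KO level was 7.39% of WT in ESC, 17.1% in EpiLC and 12.8% in PGCLC. In bulk RNA, fewer cells with a transcript and less of it per cell cannot be told apart.

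A block of 9 X-linked genes of the Xlr3, Xlr4 and Xlr5 families (X-linked lymphocyte-regulated, relatives of a synaptonemal complex protein) was lower as well. Xlr3a stood at 15.6 and 15.2 TPM in WT ESC against 2.05 and 2.94 TPM in Ovol1KO ESC. It stood at 21.9 and 21.1 against 9.02 and 3.76 TPM in EpiLC, and at 2.3 and 2.29 against 0 and 0 TPM in PGCLC, where it was at least 1.92-fold lower. The pooled log2 fold change of Xlr3a was -1.89 ± 0.17 (limma adjusted p = 3.67e-05). The groups were apart at all 3 stages, which was a condition for naming the largest pooled changes. All 9 genes fell in ESC, in EpiLC and in the pooled fit, and 4 of the 9 passed the test in PGCLC, where WT itself held only 10.6 TPM of the whole block, against 73.1 TPM in ESC and 90.6 TPM in EpiLC. Of those 4, Xlr5a, Xlr5b and Xlr5c had 1 to 4 reads per WT library in PGCLC and 0 in Ovol1KO, too few to set a bound on a fold, and limma-voom passed 0 genes of the X-linked germ line and Rhox list there, with 9 of 11 at an unadjusted p under 0.05 (limma). Several of the 9 were at 0 in Ovol1KO: Xlr5b was at 7.67 and 4.9 TPM in WT ESC and 0 in both Ovol1KO libraries, at least 3.42-fold lower. Over the block, Ovol1KO held 11% of the WT level in ESC, 24% in EpiLC and 12.7% in PGCLC. Copies within a family are near identical, so how the counting split reads among them is uncertain, and the summed level is the firmer value. The block spans 73074343 to 73293863 on chromosome X. The 32 tested genes within 1 Mb of it had a median log2 fold change of 0 in ESC, -0.015 in EpiLC and -0.07 in PGCLC. Beside the block, Pnma5, of the paraneoplastic antigen family, fell from 41.4 and 36.4 TPM to 14.6 and 16.1 TPM in ESC (log2 fold change -1.29 ± 0.22, limma adjusted p = 0.00801) and from 35.4 and 33.3 TPM to 17.4 and 14.9 TPM in EpiLC (log2 fold change -1.05 ± 0.12, limma adjusted p = 0.000226). Fmr1nb, a testis antigen gene farther off on the same chromosome, fell in both stages too, with calls lost in fits without 1 library, by 1.08 ± 0.23 in ESC and 1.07 ± 0.21 in EpiLC on the log2 scale (limma adjusted p = 0.027 and 0.00975).

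The promoters of the 3 Xlr3 copies show how alike these members of the block are. The 250 bases before a RefSeq start of each (GRCm38.p6, 5′ to 3′ on the gene's strand) are given. The longest run common to all 3, of 58 bases, is in capitals. For Xlr3b and Xlr3c that start lies inside the gene's span, so part of the window does too. The windows are Xlr3a at chrX:73097096-73097345 (minus strand), Xlr3b at chrX:73191929-73192178 (plus strand) and Xlr3c at chrX:73265391-73265640 (minus strand).
Xlr3a: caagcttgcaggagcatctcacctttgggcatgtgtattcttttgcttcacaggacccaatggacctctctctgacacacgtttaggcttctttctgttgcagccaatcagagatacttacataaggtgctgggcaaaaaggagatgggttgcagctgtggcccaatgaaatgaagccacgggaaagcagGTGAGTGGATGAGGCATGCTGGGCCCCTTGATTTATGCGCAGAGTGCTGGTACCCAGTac
Xlr3b: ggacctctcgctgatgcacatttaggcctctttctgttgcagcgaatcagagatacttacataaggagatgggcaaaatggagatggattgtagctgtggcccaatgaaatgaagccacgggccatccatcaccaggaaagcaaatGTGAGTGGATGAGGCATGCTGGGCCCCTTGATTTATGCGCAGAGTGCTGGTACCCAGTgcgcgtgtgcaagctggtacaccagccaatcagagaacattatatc
Xlr3c: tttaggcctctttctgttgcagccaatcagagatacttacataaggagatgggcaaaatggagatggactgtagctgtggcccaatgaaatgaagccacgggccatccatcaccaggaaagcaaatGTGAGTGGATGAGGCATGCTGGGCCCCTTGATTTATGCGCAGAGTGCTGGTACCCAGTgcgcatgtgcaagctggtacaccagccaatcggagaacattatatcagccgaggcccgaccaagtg
These windows held 3, 6 and 6 CpG sites. For comparison, the windows of 2 genes called higher in the pooled fit are shown in lower case throughout: Klhl13 at chrX:23365083-23365332 (minus strand, 1 of its RefSeq starts), with 12 CpG sites, and Fstl1 at chr16:37776805-37777054 (plus strand), with 16.
Klhl13: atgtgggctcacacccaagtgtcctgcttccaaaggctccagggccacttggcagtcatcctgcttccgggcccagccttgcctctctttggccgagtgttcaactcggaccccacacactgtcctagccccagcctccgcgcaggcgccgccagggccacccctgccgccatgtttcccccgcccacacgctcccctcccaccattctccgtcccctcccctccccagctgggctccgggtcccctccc
Fstl1: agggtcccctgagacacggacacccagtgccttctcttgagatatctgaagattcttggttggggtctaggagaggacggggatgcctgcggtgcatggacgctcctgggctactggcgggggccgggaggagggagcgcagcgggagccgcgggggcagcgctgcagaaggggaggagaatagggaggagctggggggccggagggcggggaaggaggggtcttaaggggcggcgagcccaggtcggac
None of the 5 windows held CCGTTA on either strand, the core motif described for mouse Ovol1. The motif stood in 2.9% of the 14529 windows of all tested genes (422 windows), in 3 of 154 windows of genes that rose on chromosome 16 in the pooled fit (1.95%), in 1 of 93 windows of the other pooled rises (1.08%) and in 0 of 24 windows of pooled falls outside the Y chromosome. RefSeq windows were found for 68 of the 91 rises outside chromosomes 16 and Y. The median CpG number was 8 for their windows and 7.5 for the falls, against 15 over all windows and 18 for the rises on chromosome 16. Single windows varied within each direction. The fallen Xlr5a and Xlr5b held 12 and 14 CpG sites, and the risen Rhox5 and Cyct 4 and 6. Another window of Klhl13 held 0.

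At the far end of chromosome X, Mid1 and Erdr1 were lower in Ovol1KO at every stage. Mid1 (169685199 to 169990798) encodes a ubiquitin ligase and spans the pseudoautosomal boundary in laboratory mice, and Erdr1 lies within the pseudoautosomal region, the part the X and Y share. Mid1 stood at 745 and 668 TPM in WT ESC against 331 and 333 TPM in Ovol1KO, at 650 and 642 against 312 and 306 TPM in EpiLC, and at 589 and 592 against 328 and 290 TPM in PGCLC. The Ovol1KO level was 47%, 47.9% and 52.4% of WT at the 3 stages, with no overlap, and the pooled log2 fold change was -1.03 ± 0.04 (limma adjusted p = 3.65e-09). Erdr1 stood at 1750 to 2600 TPM in WT and 1020 to 1610 TPM in Ovol1KO (pooled log2 fold change -0.70 ± 0.06, limma adjusted p = 1.54e-05). The stage fits, which take their spread from all 9 lines, gave Erdr1 BH adjusted p of 0.487, 0.0948 and 0.499 (limma). The 2 tested genes within 1 Mb did not pass the test. Chromosome X as a whole showed no shift past the test: its score differed by 0.000386 (exact permutation test over libraries within stages, two-sided p = 0.963), with 11 rises and 12 falls in the pooled fit.

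**Figure D1:**
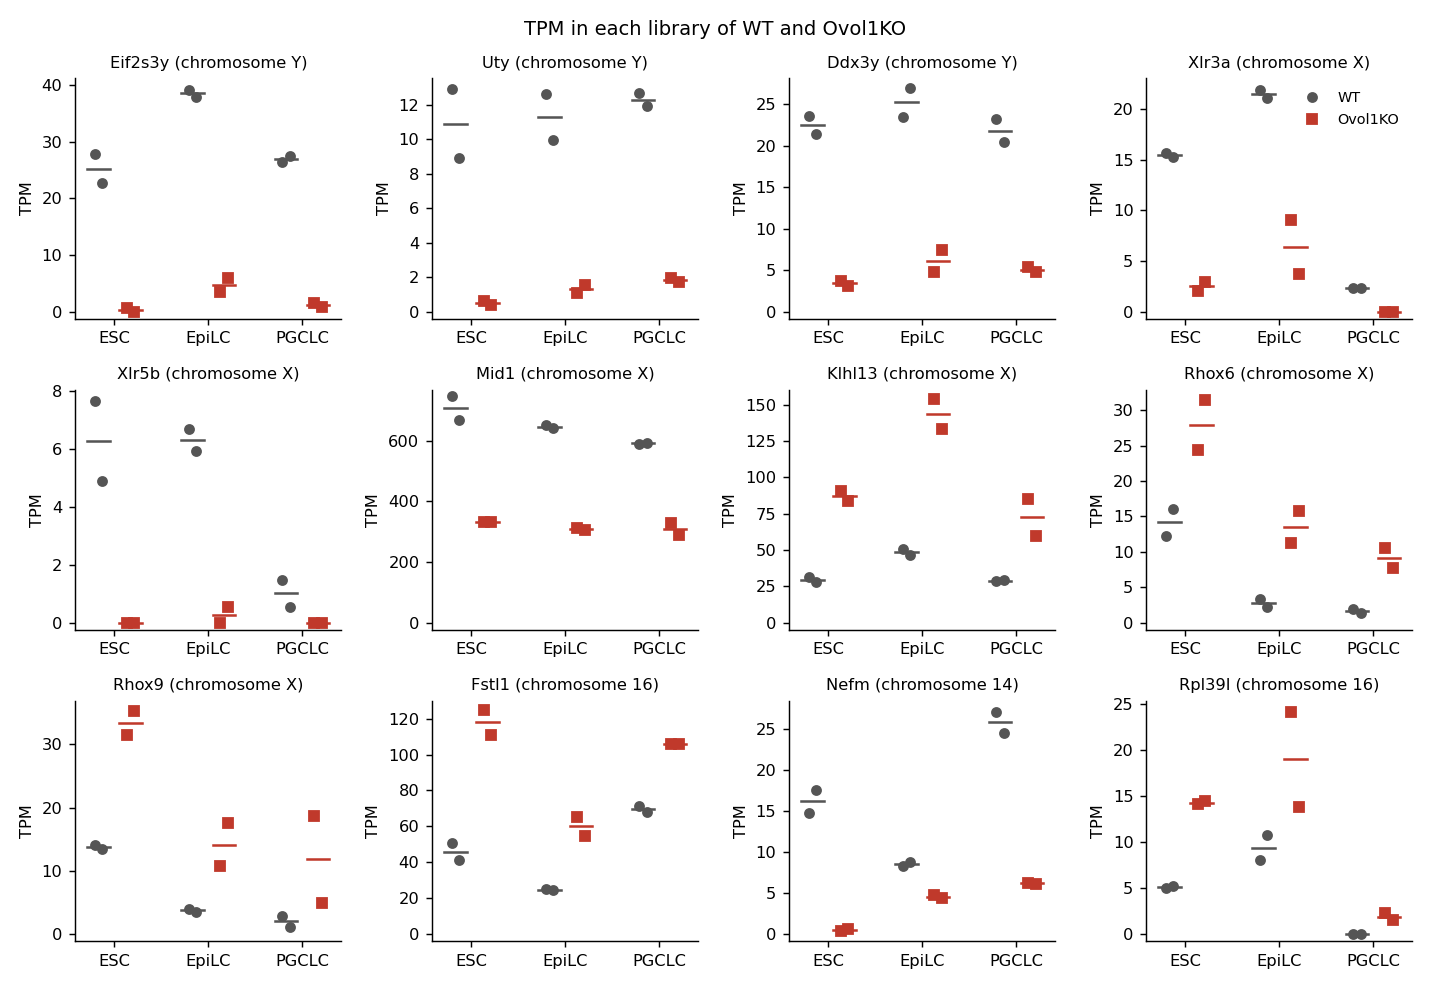
Level in TPM of 12 genes in each of the 12 libraries, WT and Ovol1KO side by side at each stage; points are libraries and bars are group means of 2. The 6 WT libraries lie above all 6 Ovol1KO libraries for Eif2s3y, Uty, Ddx3y and Mid1, and Klhl13 is at 27.8 to 50.8 TPM in WT and 59.9 to 154 TPM in Ovol1KO.

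Against these falls, a set of X-linked genes was higher. Klhl13 (chromosome X, 23219271 to 23365161) encodes a substrate adaptor of a Cullin 3 ubiquitin ligase. It stood at 31.2 and 27.8 TPM in WT ESC against 90.9 and 83.4 TPM in Ovol1KO. It stood at 50.8 and 46.7 against 154 and 133 TPM in EpiLC, and at 28.6 and 29.5 against 85 and 59.9 TPM in PGCLC. Its Ovol1KO level was 296%, 295% and 250% of WT at the 3 stages, and the pooled log2 fold change was 1.45 ± 0.09 (limma adjusted p = 2.05e-07). The reproductive homeobox genes of the Rhox cluster also rose in part. Rhox9 stood at 14 and 13.4 TPM in WT ESC against 31.5 and 35.2 TPM in Ovol1KO, at 3.97 and 3.54 against 10.7 and 17.5 TPM in EpiLC, and at 2.87 and 1.07 against 18.7 and 4.89 TPM in PGCLC (pooled log2 fold change 1.6 ± 0.25, limma adjusted p = 0.00424). Rhox6 was higher in every Ovol1KO library than in the WT libraries of its stage, again a condition for its naming (pooled log2 fold change 1.59 ± 0.18, limma adjusted p = 3.59e-04). Rhox5, the most abundant of them, stood at 170 and 185 against 244 and 322 TPM in ESC, at 455 and 389 against 606 and 606 TPM in EpiLC and at 17.4 and 25.9 against 99.9 and 57.9 TPM in PGCLC (pooled log2 fold change 0.99 ± 0.21, limma adjusted p = 0.0422). Of the 20 Rhox genes tested, between 37213804 and 38129966 on chromosome X, 2 rose in ESC and 3 each in EpiLC, PGCLC and the pooled fit, and 1, Rhox4f, fell in EpiLC. The share of all genes that rose was 1.48%, 2.71%, 1.91% and 1.68%. Many Rhox genes are recent copies of each other, so their separate values are uncertain as well.

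Some genes known from the germ line rose off the X chromosome as well; those named here first were chosen after their values were seen. Tex19.1, which restrains retrotransposons in the mouse germ line and placenta, stood at 28.1 and 31.6 TPM in WT ESC against 49.4 and 61.3 TPM in Ovol1KO, at 41.2 and 37.2 against 60.3 and 75.1 TPM in EpiLC, and at 4.6 and 3.44 against 15.8 and 7.89 TPM in PGCLC. It rose at all 3 stages (log2 fold changes 0.86 ± 0.10, 0.77 ± 0.11 and 1.30 ± 0.28, limma adjusted p = 0.000463, 0.00103 and 0.0288). Its neighbour Tex19.2 was called in EpiLC, at 1.42 and 1.76 against 4.74 and 6.95 TPM (log2 fold change 1.38 ± 0.21, limma adjusted p = 0.00167). The PGCLC call of Tex19.1 was lost without either WT library or without the first Ovol1KO library. Piwil2, which encodes a PIWI protein that binds piRNAs, rose in the pooled fit by 0.71 ± 0.16 on the log2 scale (limma adjusted p = 0.034), from 0.171 to 7 TPM over the WT libraries to 0.958 to 10.2 TPM over the Ovol1KO libraries. Dppa3, which protects the maternal genome from demethylation, rose in the pooled fit by 0.97 ± 0.20 (limma adjusted p = 0.0234), and Cyct, the testis form of cytochrome c, by 1.06 ± 0.24 (limma adjusted p = 0.047). The call for Cyct was lost under 16 of 21 alternatives. Of 22 tested genes of a germ cell list, 5 rose and 0 fell in the pooled fit (22.7%, where 1.68% of all genes rose), with a median log2 fold change of 0.49, where the median over all genes was 0.02. They were the X-linked Rhox5, Rhox6 and Rhox9, with Dppa3 and Mael. Of 25 tested meiosis genes, 1 rose in the pooled fit, Piwil2, and the median was 0.19.

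Nefm, Fstl1 and Rpl39l were called in the pooled fit away from the sex chromosomes. Nefm, the medium neurofilament gene (chromosome 14, 68119545 to 68125004), stood at 14.7 and 17.6 TPM in WT ESC against 0.391 and 0.6 TPM in Ovol1KO. It stood at 8.3 and 8.78 against 4.69 and 4.4 TPM in EpiLC and at 27.1 and 24.5 against 6.26 and 6.07 TPM in PGCLC. Its pooled log2 fold change was -2.07 ± 0.32 (limma adjusted p = 0.00424), and the Ovol1KO level was 3.07%, 53.2% and 23.9% of WT at the 3 stages. Nefl, the light neurofilament gene next to it, was called in ESC, at 40.2 and 37.1 against 15.4 and 8.72 TPM (log2 fold change -1.65 ± 0.18, limma adjusted p = 0.000171), and stood at 29.4 and 35.3 against 33.5 and 43 TPM in EpiLC. A further neurofilament gene, Nefh, was called higher in PGCLC (log2 fold change 1.30, limma adjusted p = 0.0318), a call lost under 6 of 12 alternatives. Fstl1 (chromosome 16, 37777055 to 37836516), which encodes a secreted follistatin-like protein, stood at 50.5 and 41.2 against 125 and 111 TPM in ESC, at 24.9 and 24.5 against 65.1 and 54.7 TPM in EpiLC, and at 71.3 and 68.2 against 106 and 106 TPM in PGCLC. Its pooled log2 fold change was 1.06 ± 0.11 (limma adjusted p = 1.24e-04). Rpl39l, a ribosomal protein gene of testis, stood at 4.95 and 5.18 against 14.1 and 14.4 TPM in ESC, at 7.97 and 10.7 against 24.1 and 13.8 TPM in EpiLC, and at 0 and 0 against 2.28 and 1.46 TPM in PGCLC (pooled log2 fold change 1.25 ± 0.16, limma adjusted p = 6.95e-04). Among smaller pooled falls, Ldha, which encodes lactate dehydrogenase A, fell by 0.36 ± 0.05 on the log2 scale (limma adjusted p = 0.00233) and the cyclin gene Ccnd1 fell by 0.45 ± 0.09 (limma adjusted p = 0.0127).

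Most of the genes that rose in the pooled fit were on chromosome 16, and they rose by a similar small amount. Of the 431 tested genes of chromosome 16, 151 rose and 0 fell, which is 35% of them and 62.4% of all pooled rises, while the chromosome holds 3% of the tested genes. In the stage fits 73 rose in ESC, 130 in EpiLC and 109 in PGCLC, again with 0 falls. The median log2 fold change of the chromosome's genes was 0.30 in ESC, 0.32 in EpiLC and 0.31 in PGCLC, against medians of all genes of 0.013, 0.0355 and 0.0016. The pooled median of 0.32 corresponds to a 1.25-fold higher level, and 90.7% of the genes lay above 0. The shift ran along the whole chromosome: in windows of 10 Mb the pooled median was 0.29 to 0.38. By mean level it was 0.09 for 50 genes under 1 TPM, 0.29 for 103 genes from 1 to 10 TPM, 0.34 for 225 genes from 10 to 100 TPM and 0.32 for 53 genes above 100 TPM. Adding 1 to every TPM shrinks the fold changes of the scarcest genes.

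To compare whole chromosomes over libraries, each library was given a score per chromosome, the median over its genes of the deviation from the gene's mean over the 12 libraries on the log2(TPM + 1) scale, less the same median over all genes. The chromosome 16 score was -0.0626 and -0.0962 in WT ESC against 0.185 and 0.22 in Ovol1KO ESC. It was -0.171 and -0.189 against 0.0621 and 0.0629 in EpiLC, and -0.127 and -0.139 against 0.145 and 0.153 in PGCLC. The groups did not overlap at any stage, and the mean difference was 0.269. An exact permutation test of lines within stages, with 216 arrangements, gave a two-sided p of 0.00926, the smallest it can give, and a BH adjusted p of 0.0243 over 21 chromosomes. Chromosome 8 differed in the same direction by 0.0828 (exact permutation p = 0.00926), with a pooled median log2 fold change of 0.12 (1.08-fold), 18 rises and 0 falls among 761 genes, and 81.7% of genes above 0. The Y chromosome differed by -1.73 over its 7 genes (exact permutation p = 0.00926). Chromosomes 2, 5, 11, 15 and 19 also reached the smallest p, each with a slightly lower score. The score differences were, in that order, -0.0202, -0.0181, -0.0349, -0.0268 and -0.0337. Their pooled median log2 fold changes were 0.0026, 0.0107, -0.0101, -0.0013 and 0.0048, where the median of all genes was 0.0223. The score is relative to all genes, those of chromosomes 8 and 16 included. The pooled medians of the 17 autosomes other than 8 and 16 lay between -0.01 and 0.03. In PGCLC, chromosome 18 had 23 of that stage's 109 falls and a median log2 fold change of -0.07.

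**Figure D2:**
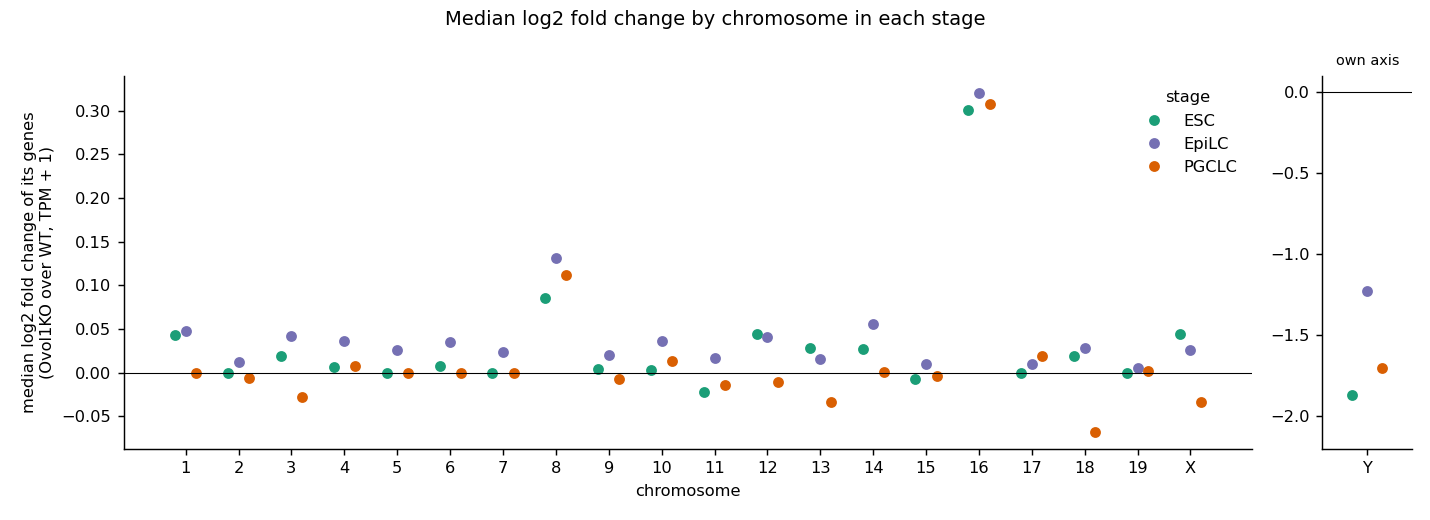
Median log2 fold change (Ovol1KO over WT) of the tested genes of each chromosome at each stage, with the Y chromosome on an axis of its own. Chromosome 16 stands at 0.30, 0.32 and 0.31 at the 3 stages, chromosome 8 next, and the other autosomes lie near 0.

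Housekeeping genes of chromosome 16 show the size and evenness of this shift. Cct8, which encodes a subunit of the TRiC chaperonin, stood at 665 and 661 TPM in WT ESC against 828 and 817 TPM in Ovol1KO, at 811 and 783 against 930 and 978 TPM in EpiLC, and at 691 and 679 against 883 and 847 TPM in PGCLC. Its pooled log2 fold change was 0.30 ± 0.03 (limma adjusted p = 1.21e-04). The mitochondrial ribosome gene Mrpl40 rose by 0.47, the nuclear transport gene Ranbp1 by 0.31, the proton pump gene Atp6v1a by 0.56 and the ribosomal gene Rpl24 by 0.32 in the pooled fit (log2 scale). Only 3 genes of the chromosome passed the fold minimum there: Rpl39l, Fstl1 and Nsun3, a mitochondrial tRNA methyltransferase gene that lost its call under 14 of 21 alternatives. Among genes of pluripotency and germ line lists, Dppa2 (pooled log2 fold change 0.82 ± 0.14, limma adjusted p = 0.00613), Dppa4 (0.86 ± 0.19, limma adjusted p = 0.0479) and Morc1 (0.86 ± 0.20, limma adjusted p = 0.0409) lie next to each other on chromosome 16, whose pooled median was 0.32. On chromosome 8, the sterol synthesis gene Msmo1 rose from 186 and 195 TPM to 245 and 224 TPM in ESC, from 360 and 341 to 396 and 408 TPM in EpiLC and from 97.5 and 106 to 119 and 134 TPM in PGCLC, judged by its pooled log2 fold change of 0.27 ± 0.05 (limma adjusted p = 0.00699). The other 91 pooled rises lay outside chromosome 16, and 0.554% of the genes outside chromosomes 8 and 16 rose. DNA copy number was not analysed here.

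The other lines of the series give a scale for these scores, without a test, since all share the same WT libraries. With scores centred on the 18 libraries of a stage, chromosome 16 stood at -0.304 to -0.212 in WT, at -0.313 to -0.249 in Ovol2KO and at -0.359 to -0.281 in Ovol3KO. In Ovol1KO it stood at -0.00387 to 0.0304, and in TKO and the 4 transgenic lines at 0.12 to 0.219. The chromosome 8 score was -0.0221 to 0.00715 in WT, 0.0425 to 0.0965 in Ovol1KO and 0.378 to 0.435 in Ovol3KO. The summed level of the 7 Y-linked genes, 59.5 to 84.9 TPM in WT and 3.75 to 17.6 TPM in Ovol1KO, was 0 to 0.19 TPM in Ovol2KO, 25.1 to 34.2 TPM in Ovol3KO and 2.32 to 10.3 TPM in TKO. Each of these 3 quantities thus lay in Ovol1KO between WT and at least 1 other line. The summed Xlr level was below WT at every stage in all other lines too. In ESC it was 7.63 and 8.38 TPM in Ovol1KO, 2.42 and 4.99 in Ovol2KO and 21.6 and 23.8 in TKO. Nefm in ESC stood at 0.956 and 0.567 TPM in TKO, at 0.146 and 0 TPM in Ovol3KO and at 0.253 to 1.03 TPM in the 4 transgenic lines, but at 14 and 12.3 TPM in Ovol2KO. In TKO ESC Klhl13 stood at 242 and 234 TPM and Fstl1 at 208 and 205 TPM. In Ovol3KO ESC they stood at 29.9 and 24.1 and at 28.3 and 28.4 TPM. The Xlr falls and the low Nefm level in ESC were thus not particular to Ovol1KO.

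**Figure D3:**
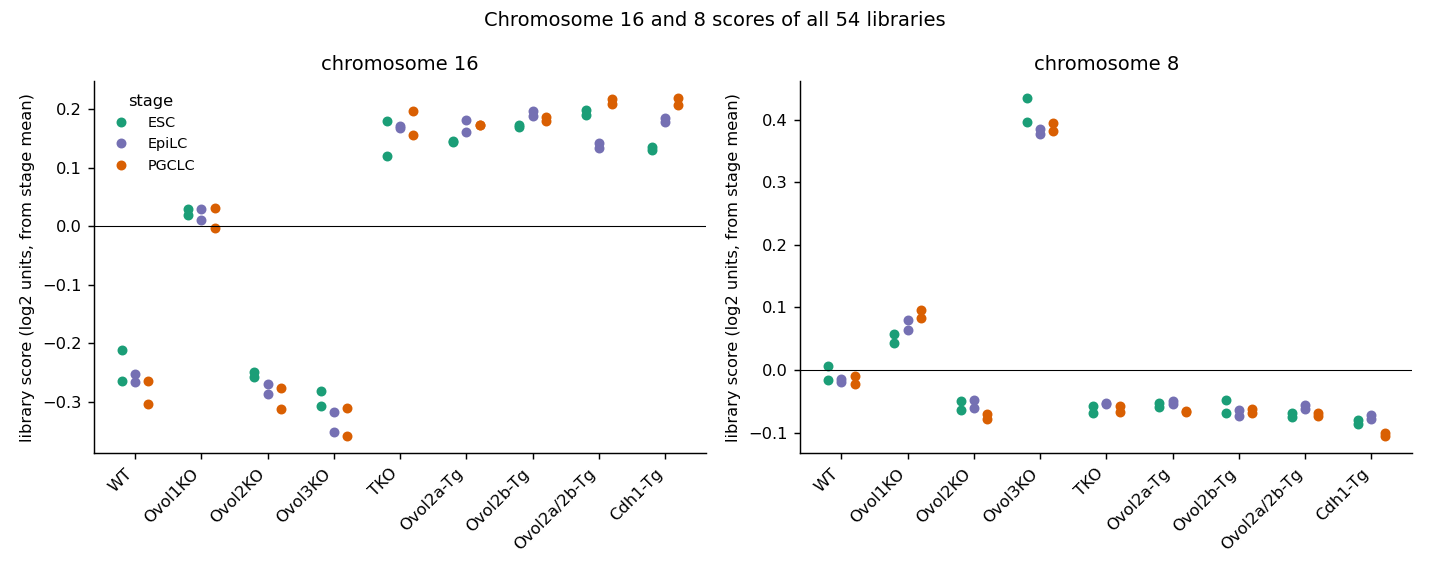
Chromosome 16 and chromosome 8 scores (log2 scale, centred on the 18 libraries of each stage) of all 54 libraries by line, coloured by stage; each point is a library. The 6 Ovol1KO libraries lie at -0.00387 to 0.0304 on chromosome 16, above WT at -0.304 to -0.212.

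In ESC the 6 largest rises were of scarce genes. They included Hist1h2ba, a testis histone H2B gene, at 0.839 and 0 TPM in WT and 3.9 and 11.2 TPM in Ovol1KO, Tcl1b2 at 0 and 0.688 against 2.92 and 2.88 TPM, and the natural killer ligand genes Raet1c and Raet1e. Raet1c stood at 2.64 and 0.562 against 8.87 and 7.06 TPM, and Raet1e followed it in every library, so the 2 may share reads. Each of the 6 lost its call in at least 1 fit without 1 of the 4 libraries. Serpine2, which encodes a secreted protease inhibitor, kept its call in every such fit, at 10.6 and 11.5 against 29.7 and 27.4 TPM (log2 fold change 1.30 ± 0.15, limma adjusted p = 0.000459). Of 20 tested p53 targets, 4 rose and 0 fell in ESC (20%, where 1.48% of all genes rose). Among them Plk2, a polo-like kinase gene, stood at 23.3 and 29.8 against 46.5 and 62.3 TPM (limma adjusted p = 0.00415), a call lost without the first WT or the second Ovol1KO library, and Mdm2, the ubiquitin ligase of p53, at 90.9 and 83.8 against 123 and 127 TPM (0.51 ± 0.08, limma adjusted p = 0.00544). The naive pluripotency list gave 0 rises and 1 fall among 21 genes, Klf4, with 9 at an unadjusted p under 0.05 (limma) and 1 passing with limma-voom.

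In EpiLC, genes of the naive state that EpiLC switch off were higher in Ovol1KO at low levels. Esrrb, an orphan nuclear receptor gene of naive cells, stood at 10.7 and 11.3 TPM in WT EpiLC against 29.1 and 24.8 TPM in Ovol1KO (log2 fold change 1.21 ± 0.18, limma adjusted p = 0.00153), well under its 334 to 371 TPM in ESC of both lines. Tcl1, a coactivator of AKT kinase, stood at 1.26 and 0.69 against 3.26 and 2.66 TPM (1.02 ± 0.22, limma adjusted p = 0.0188). Of the 21 naive genes, 7 rose and 0 fell (33.3%, where 2.71% of all genes rose), and the median log2 fold change was 0.46. The summed level of 6 ESC markers was 53.7 to 54 TPM in WT EpiLC and 80.6 to 90 TPM in Ovol1KO EpiLC. Tbx3 and Prdm14 were under 1 TPM in both. The sum is not a separate measure, since its members Esrrb and Tfcp2l1 are among the 7 rises. Its part in these rises was not tested. Tfap2c, a transcription factor gene of the early germ line, stood at 0.38 and 1.92 against 2.96 and 5.24 TPM (1.31 ± 0.29, limma adjusted p = 0.0234). The germ cell list had 5 rises and 0 falls among 22 genes (22.7%), and the p53 list 7 rises and 0 falls among 20 (35%), against the same 2.71% of all genes. The 5 were Tfap2c, Hspb1 and the X-linked Rhox5, Rhox6 and Rhox9. Among the 7 p53 targets was Cdkn1a, the cell cycle inhibitor p21, at 22.7 and 22.8 against 36.9 and 38.8 TPM (0.71 ± 0.12, limma adjusted p = 0.00512). The p53 list did not keep this pattern. In PGCLC 0 of its 20 genes rose and 1, Cdkn1a, fell, with a median log2 fold change of -0.09. In the pooled fit 1 rose, Mdm2, and 0 fell, with a median of 0.09. Among the falls was Nnat, an imprinted gene encoding a membrane proteolipid, at 28.8 and 27.7 against 9.53 and 9.72 TPM (-1.46 ± 0.23, limma adjusted p = 0.0026). With limma-voom Esrrb, Tcl1 and Tfap2c were not called. Esrrb and Nnat kept their calls in each fit without 1 library, while Tcl1 lost its call without the second WT or the first Ovol1KO library and Tfap2c without the first WT or the second Ovol1KO library.

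In PGCLC, members of the pluripotency and germ cell lists were among the higher calls, and 2 of the 25 lower calls, Wnt3a and Gata6, were in the primitive streak and mesoderm list, but those calls did not hold without the first Ovol1KO library. Of called rises whose libraries did not overlap, Rpl10l had the largest (log2 fold change 2.64, limma adjusted p = 0.00575). Its call was lost under 4 of 12 alternatives. Rhox9, Rhox6, Laptm5, Cyct and Bin2 came next. The largest such falls were those of Eif2s3y, Uty, Ddx3y, Nefm, Wnt2 and Pspn. Dppa3 stood at 18 and 20.4 TPM in WT against 68.5 and 32.6 TPM in Ovol1KO (log2 fold change 1.26 ± 0.26, limma adjusted p = 0.0222). Spp1, which encodes the secreted protein osteopontin, stood at 32 and 24.7 against 97.5 and 62.7 TPM (1.44 ± 0.21, limma adjusted p = 0.00334). Dppa4 stood at 20.9 and 23.4 against 91.6 and 52.7 TPM (1.61 ± 0.31, limma adjusted p = 0.0164). In each of these the first Ovol1KO library lay farther from WT than the second. Dnmt3l, a cofactor of de novo DNA methylation, stood at 5.05 and 4.48 against 22 and 14.2 TPM (1.70 ± 0.26, limma adjusted p = 0.00407). On the lower side, Wnt3a, which encodes a WNT ligand of the primitive streak, stood at 33.4 and 30.8 against 4.01 and 17.4 TPM (-1.78 ± 0.42, limma adjusted p = 0.0449). The mesoderm and endoderm factor Gata6 stood at 13.6 and 7.78 against 2.88 and 6.14 TPM (-1.11 ± 0.27, limma adjusted p = 0.0437), and T, the defining factor of the streak, at 1160 and 1280 against 834 and 1160 TPM (-0.31 ± 0.35, limma adjusted p = 0.701).

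By list, 4 of 21 naive genes were called higher in PGCLC (Nr0b1, Dppa3, Tdh and Spp1) and 0 lower, with a median log2 fold change of 0.65. By adjusted p alone, 5 of the 21 rose and 2, Tbx3 and Gbx2, fell, where 1.91% of all genes rose and 0.756% fell. General pluripotency had 3 of 17 called higher (Dppa2, Dppa4 and Foxd3), germ cell 5 of 22 (Dppa3, Rhox5, Rhox6, Rhox9 and Stk31) and formative pluripotency 3 of 19 (Dnmt3l, Tcf15 and Foxd3), where 0.493% of all genes were called higher. By adjusted p alone Sall4 fell in the general and Igfbp3 in the formative list, against 4 and 5 rises. Primitive streak and mesoderm had 1 of 32 called higher, Fgf4, and 2 lower, Wnt3a and Gata6, with a median of -0.55, where 0.173% of all genes were called lower. By adjusted p alone 1 of the 32 rose and 5 fell. With limma-voom 0 genes were called in the general pluripotency, germ cell and mesoderm lists, which had 11, 12 and 14 genes at an unadjusted p under 0.05 (limma). Mean levels of the lists on the log2(TPM + 1) scale show the difference between the 2 Ovol1KO libraries. For primitive streak and mesoderm they were 5.02 and 4.86 in WT and 4.04 and 4.81 in Ovol1KO, so the second library lay close to WT. For general pluripotency they were 6.99 and 7.06 against 7.8 and 7.36, and for germ cell 4 and 3.95 against 4.65 and 4.41. Without the first Ovol1KO library, which also had the fewest reads of the PGCLC, 13 genes were called in place of 96, and each list gene named above as called in PGCLC lost its call. Of these, Spp1 and Dnmt3l alone kept it without either WT library. Without the second, 489 were called. Among the PGCLC calls named here, those of Eif2s3y, Uty, Ddx3y, Kdm5d, Nefm and Klhl13 held in each fit without 1 of the 4 libraries. Summed levels of marker sets moved too: 5 EpiLC markers stood at 290 to 386 TPM in WT PGCLC and 368 to 582 TPM in Ovol1KO, and 5 primitive endoderm markers at 21.2 to 30.2 TPM in WT and lower in both Ovol1KO libraries, the lowest at 14.7 TPM. Blood and endothelium markers stood at 2.64 to 3.22 and 6.58 to 13.4 TPM, of which Pecam1 made up most, with Tal1 and Gata1 under 1 TPM in both lines. Their part in the PGCLC calls was not tested.

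**Figure D4:**
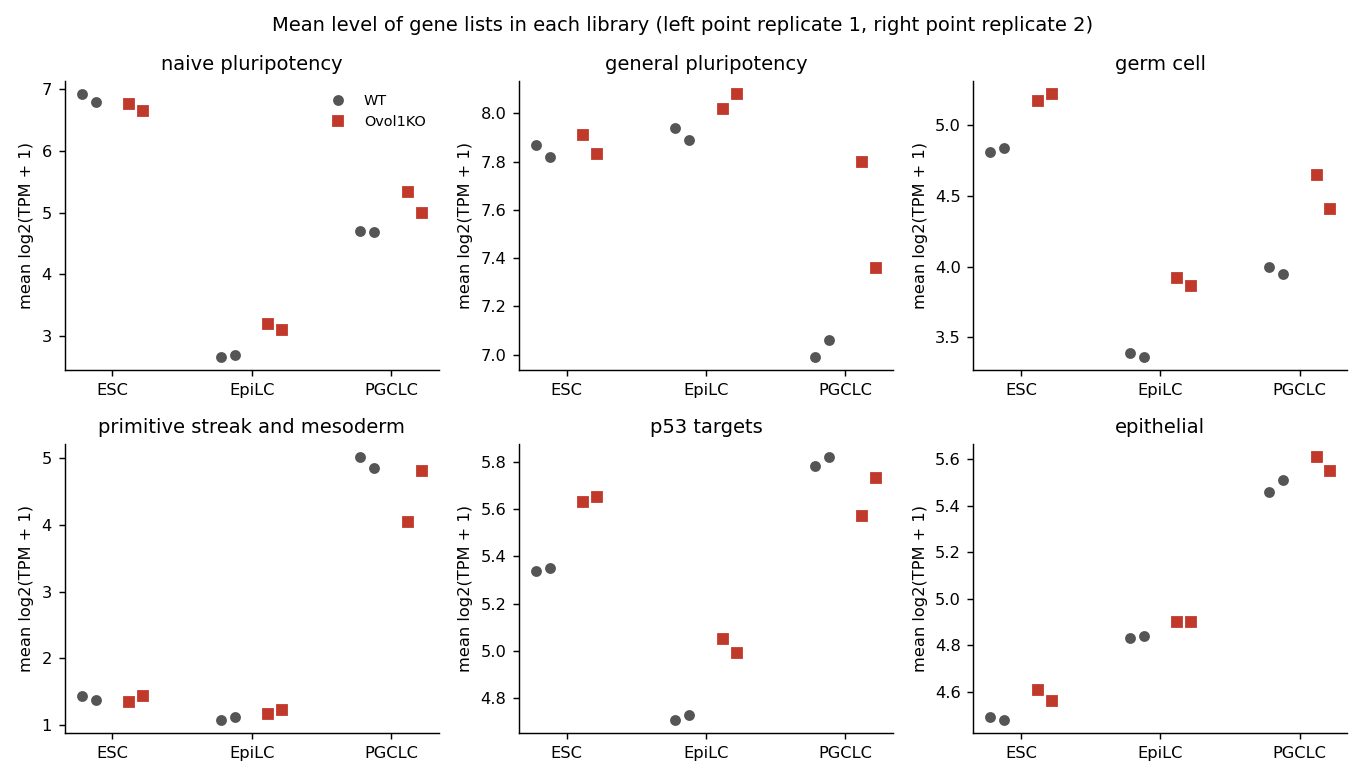
Mean log2(TPM + 1) of the tested genes of 6 lists in each of the 12 libraries, by stage and line; each point is a library. In PGCLC, the primitive streak and mesoderm list is at 5.02 and 4.86 in WT and 4.04 and 4.81 in Ovol1KO, while the epithelial list is at 5.46 and 5.51 in WT and 5.61 and 5.55 in Ovol1KO.

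Gene groups tied to Ovol proteins in other tissues were counted in the same way. Of 35 epithelial genes, 0 were called in any comparison (limma). The medians were 0.05, 0.07 and 0.07 at the 3 stages and 0.08 in the pooled fit, 1 gene rose in ESC, 1 in EpiLC and 1, the tight junction gene Cldn4, in the pooled fit, and 7, 12, 6 and 7 had an unadjusted p under 0.05, with 0 called by limma-voom. Of 23 genes of the epithelial to mesenchymal transition, 4 rose and 0 fell in EpiLC (17.4%, where 2.71% of all genes rose): Twist1, Vim, Tagln and Sparc. In ESC 0 passed (limma), with 2 at an unadjusted p under 0.05 and 0 by limma-voom. In PGCLC 1 fell, Cdh11, with 11 of the 23 at an unadjusted p under 0.05 (limma), 0 by limma-voom and a median log2 fold change of -0.2. In the pooled fit 0 passed, with 2 at an unadjusted p under 0.05 and 0 by limma-voom. The transcription factor gene Twist1 was the 1 called, at 1.79 and 2.36 against 4.28 and 6.45 TPM (1.03 ± 0.19, limma adjusted p = 0.00859). Its call was lost with quantile scaling, with limma-voom and without the first WT or the second Ovol1KO library. Of 9 genes of epidermal differentiation 0 were called by limma or by limma-voom. By adjusted p alone Klf4 fell in ESC and Ppl, a cell envelope gene, rose in EpiLC (11.1% each), and 3, 2, 1 and 3 had an unadjusted p under 0.05 in ESC, EpiLC, PGCLC and the pooled fit. The genes described as Ovol1 targets in mouse skin and testis, Myc, Id2 and Ovol2, gave 0 of 3 past the test in any comparison, with 1, 2, 0 and 0 at an unadjusted p under 0.05 and 0 by limma-voom. Myc stood at 3.48 and 4.63 against 1.76 and 2.02 TPM in ESC (-0.80 ± 0.24, limma adjusted p = 0.118), and Id2 at 9.17 and 8.79 against 16.2 and 12.6 TPM in EpiLC (0.62 ± 0.16, limma adjusted p = 0.0518). Of 29 Hox genes 0 passed the test in any comparison, with 2, 0, 3 and 1 at an unadjusted p under 0.05 and 0 by limma-voom. A test that misses its threshold with 2 libraries a group does not show that these genes were equal.

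The size of the Ovol1KO effect depended on stage for 9 genes by an interaction F test over the 12 libraries (limma adjusted p under 0.05; 0.0624% of genes). Nefm had the lowest adjusted p, 0.0078 (limma), with log2 fold changes of -3.52, -0.78 and -1.90 in ESC, EpiLC and PGCLC. Emb and Pdpn rose in ESC alone. Emb, which encodes the transporter chaperone embigin, stood at 58.2 and 60.9 against 116 and 115 TPM in ESC and at 378 and 346 against 408 and 397 TPM in EpiLC, and Pdpn, which encodes the membrane glycoprotein podoplanin, at 15.2 and 13.6 against 27 and 29.5 TPM in ESC and 166 and 157 against 120 and 124 TPM in PGCLC (limma adjusted p = 0.134). Serpine2 was at 62.1 and 57.7 against 45.1 and 54.2 TPM in PGCLC, with both Ovol1KO libraries below WT (limma adjusted p = 0.202). Hspb1, Mest and Cdkn1a differed most at a later stage. Hspb1, a small heat shock protein gene, stood at 849 and 891 against 890 and 950 TPM in ESC and at 127 and 114 against 253 and 223 TPM in EpiLC. The imprinted gene Mest stood at 151 and 161 against 141 and 151 TPM in EpiLC and at 20.8 and 20.6 against 39.7 and 40.3 TPM in PGCLC. Cdkn1a was higher in EpiLC and stood at 159 and 188 against 114 and 125 TPM in PGCLC (-0.53 ± 0.11, limma adjusted p = 0.0288). Nefm alone kept its stage dependence in every fit without 1 library. The PGCLC list genes had no stage dependence past the threshold: adjusted p was 0.618 for Dppa3, 0.191 for Dppa4, 0.0817 for Tdh, 0.0663 for Dnmt3l and 0.431 for Wnt3a (limma).

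**Figure D5:**
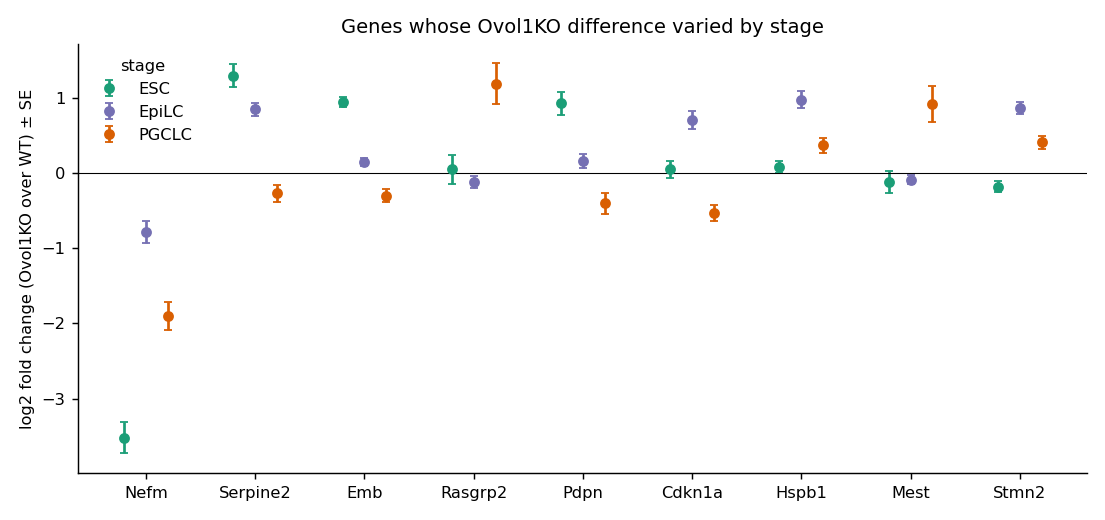
Log2 fold change (Ovol1KO over WT, with SE) at each stage for the 9 genes whose effect depended on stage. Nefm runs from -3.52 in ESC to -0.78 in EpiLC and -1.90 in PGCLC, and Serpine2 from 1.30 to 0.85 and -0.27.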

How the data were processed

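Poly(A) RNA was sequenced from 54 libraries, of which the 12 WT and Ovol1KO libraries are compared here; groups came from sample titles. RNeasy Micro and NEBNext poly(A) and Ultra Directional kits with 12 PCR cycles were used, per the labels' protocols. HISAT2, featureCounts, edgeR and the mm10 build are named per the submitters' processing notes; their versions, the annotation and whether counting used strand were not stated there. The authors deposited 1 table of TPM values, so a gene's value is its share of the library and not an amount per cell. Read counts are integers that the authors' TPM values still hold: whole reads were recovered for 17973 of 17973 genes above 0 (tolerance 1e-06) and used for depth and for limma-voom. Depth was 2.16 to 17.49 M reads. Floors of 3 reads per library cover counting error only.

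Tests used limma 3.58.1 in R 4.3.3 (trend and robust) on log2(TPM + 1), a scale that understates changes of scarce genes, for 14416 of 20036 genes with TPM of at least 1 in at least 2 of the 54 libraries. Stage fits held the 18 libraries and 9 lines of a stage (9 residual degrees of freedom), the pooled fit the 12 libraries with stage and line (8), and the stage dependence test their interaction (6). BH adjustment ran over all tested genes. Permutation within a stage was not used, since 0.33 is the smallest two-sided p that 2 libraries a group allow. Chromosome scores were tested by exact permutation in Python 3.11.15 with scipy 1.17.1. The fits were tested on simulated data. Gene positions and promoter windows are RefSeq GRCm38.p6, the mm10 assembly; 14369 tested genes were placed and 47 were not.

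Replicate libraries differed beyond counting noise (2.29 to 3.75 as chi-square over its degrees of freedom), so none were merged. The naming rule took up to 10 of the largest pooled rises and falls and the 6 largest at each stage, all called. WT and Ovol1KO libraries of these had to lie apart, at every stage for pooled genes, so that separation is no added support. The rule also took the 6 lowest interaction p, called members and up to 4 members of each list by pooled p, and up to 6 genes per shifted chromosome. Not all of its genes are described. Those left out include 1700016H13Rik, Ctrb1, Slfn3 and Hist1h2bl of EpiLC and some called list members. Tex19.1, Tex19.2, Morc1, Mid1, Erdr1, Pnma5, Fmr1nb, Hspb1, Mest, Tfap2c, Myc, Id2, Ccnd1 and Ldha are values added or kept after they were seen where that rule does not name them, as are smaller members of lists. The members and lists were chosen with earlier results of these data known. Alternatives tried were the pseudocount, the filter, quantile scaling, the fold minimum, limma-voom, a replicate block, smaller and larger fits, and leaving out each library.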

Additional observations from a re-analysis of the deposited data

Results flagged for a closer look

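For 9 genes the Ovol1KO effect differed between stages by a test of that difference, the interaction F test of limma with BH adjustment over all tested genes. The adjusted p was 0.0078 for Nefm, 0.0119 each for Serpine2, Emb and Rasgrp2, 0.0162 for Pdpn, 0.019 each for Cdkn1a and Hspb1, 0.0325 for Mest and 0.0349 for Stmn2. Rasgrp2, which encodes a guanine nucleotide exchange factor, stood at 38.7 and 37.4 TPM in WT ESC against 38.6 and 40.2 TPM in Ovol1KO, and at 3.84 and 4.02 against 10.9 and 9.66 TPM in PGCLC. Stmn2, a microtubule regulator gene, stood at 214 and 218 against 193 and 188 TPM in ESC and at 27.9 and 27.7 against 51.9 and 51 TPM in EpiLC. Of the 9, Nefm alone kept its adjusted p under 0.05 in each fit without 1 of the 12 libraries.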

How the results depend on the processing

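Beside limits of depth, 2 libraries a group set the precision. Counts of called genes were 290, 467, 384 and 271 without a fold minimum in ESC, EpiLC, PGCLC and the pooled fit. With limma-voom on recovered reads they were 45 in ESC, 19 in PGCLC and 52 in the pooled fit. With only the 4 libraries compared, which leave 2 residual degrees of freedom, they were 0 in ESC, 1 in EpiLC and 0 in PGCLC. Without 1 library they ran from 45 to 133 in ESC, 38 to 161 in EpiLC, 13 to 489 in PGCLC, 21 to 27 in the pooled fit and 1 to 144 for stage dependence. Without a WT library PGCLC gave 18 and 35. Stage dependence gave 16 genes at a pseudocount of 0.1 and 502 in a fit of all 54 libraries. Replicate numbers did not pair the libraries (correlations of their deviations 0.179, -0.036 and -0.07); a replicate block gave 80, 70, 86 and 22 genes, and 12 for stage dependence. The shifts of chromosomes 16 (0.261 to 0.314), 8 (0.0749 to 0.0909) and Y (-1.65 to -3.01) kept their direction and an unadjusted exact permutation p under 0.05 in every alternative tried. That of chromosome X turned to -0.00238 at a TPM minimum of 5, to -0.0137 with quantile scaling and to -0.00707 with centring by stage, an alternative chosen after seeing the data, and ran from -0.0125 to 0.0189 without 1 library. Directions turned for some genes that had not passed the test. With limma-voom the log2 fold change was -0.018 for Ovol2 in ESC, -0.0468 for Ovol2 in PGCLC and 0.10 for Ovol1 in the pooled fit. Without 1 library it ran in ESC from -0.25 to 0.71 for Ovol2, from -0.27 to 0.45 for Ovol3 and from -0.0208 to 0.17 for Cdh1. It ran from -0.30 to 0.0024 for Ovol3 in EpiLC, from -0.37 to 0.52 for Ovol2 in PGCLC and from -0.17 to 0.0366 for Ovol1 in the pooled fit. Of 187 gene results, 27 kept call and direction throughout. Pooled calls lost in some setting were Cyct in 16 of 21, Nsun3 in 14, Zfy1 in 8, Xlr4b in 5, Kdm5d in 4, Xlr4a in 2, and Fstl1 and Mid1 in 1 each, where the log2 fold change came just under the minimum. Causes of these changes were not tested.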
